A study of Homo sapiens with 12 samples.

Results

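The stretch of the short arm of chromosome 10 from 10 to 30 Mb was followed in a mesothelioma line and in its drug-resistant derivative. Its members are the protein-coding genes whose GENCODE release 29 start (the lower coordinate, on GRCh38) lies in that interval and whose mean over the 12 libraries was at least 1 CPM (counts scaled to library size), without VIM and ITGA8. In the table of 58302 genes, 91 protein-coding genes start there, of which 2 were left out by the rule, 31 were under 1 CPM and 58 are members. The interval was selected on the measured difference between the lines, so the values between the lines describe it and test nothing.

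The sensitive cells were NCI-H226, a human mesothelioma line that is NF2-null per the labels, incubated with DMSO or with GNE-7883, an inhibitor of TEAD. The resistant cells were NCI-H226_CL3, a derivative of that NF2-null line that was kept in a TEAD inhibitor whose concentration was stepped up from 0.25 to 3 µM, then incubated with DMSO or GNE-7883. Each of the 4 groups had 3 libraries. The sources used here give neither dose nor time of the last incubation. Only 1 resistant line was profiled, and nothing says that libraries came from separate cultures, so a p-value measures the spread between libraries, which may be technical.

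TEAD proteins bind DNA and, with YAP or TAZ, switch on genes of growth and adhesion at the end of the Hippo pathway. NF2 encodes merlin, which acts upstream in that pathway to restrain YAP and TAZ. Neighbouring genes of a chromosome arm usually have unrelated functions, and the interval holds genes for DNA replication, chromatin, protein synthesis, mitochondria, vesicle traffic and the cytoskeleton.

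For 5 members whose contrasts are described later, the 250 bases upstream of each RefSeq gene start (GRCh38.p14, read 5′ to 3′ on the gene's strand) are printed in lower case. For KIAA1217 and OTUD1 the RefSeq start lies ahead of the GENCODE start. Capitals mark GGAATG or its reverse complement CATTCC, the core of the TEAD binding motif, searched on both strands. FAM107B is shown as a gene that differed between the lines and, with all libraries in the fit, did not pass the test for a drug response (chr10:14774898-14775147, minus strand). KIAA1217 had the largest positive difference between the lines in DMSO (chr10:23694477-23694726, plus strand), and NMT2 was among the members with the largest in GNE-7883 (chr10:15168694-15168943, minus strand). FRMD4A (chr10:14008551-14008800, minus strand, inside the GENCODE gene and outside its exons) and OTUD1 (chr10:23438825-23439074, plus strand) fell with the drug in sensitive cells and hold the motif.
FAM107B: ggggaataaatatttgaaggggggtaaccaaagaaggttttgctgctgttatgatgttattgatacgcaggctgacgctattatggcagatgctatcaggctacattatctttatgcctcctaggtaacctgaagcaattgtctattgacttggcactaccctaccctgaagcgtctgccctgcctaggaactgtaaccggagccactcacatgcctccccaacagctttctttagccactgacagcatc
KIAA1217: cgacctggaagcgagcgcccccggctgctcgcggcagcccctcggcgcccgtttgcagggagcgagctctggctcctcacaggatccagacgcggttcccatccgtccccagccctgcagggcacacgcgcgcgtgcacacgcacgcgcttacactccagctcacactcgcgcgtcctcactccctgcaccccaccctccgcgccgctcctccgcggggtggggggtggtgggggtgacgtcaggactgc
NMT2: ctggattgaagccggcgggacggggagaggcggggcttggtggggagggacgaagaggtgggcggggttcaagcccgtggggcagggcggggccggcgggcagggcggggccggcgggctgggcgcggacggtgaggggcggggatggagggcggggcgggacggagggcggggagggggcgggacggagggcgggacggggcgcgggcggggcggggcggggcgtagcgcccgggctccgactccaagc
FRMD4A: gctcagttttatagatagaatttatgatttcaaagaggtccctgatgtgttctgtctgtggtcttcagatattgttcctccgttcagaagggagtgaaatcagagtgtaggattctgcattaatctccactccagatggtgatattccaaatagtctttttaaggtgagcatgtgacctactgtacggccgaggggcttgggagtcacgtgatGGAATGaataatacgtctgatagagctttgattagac
OTUD1: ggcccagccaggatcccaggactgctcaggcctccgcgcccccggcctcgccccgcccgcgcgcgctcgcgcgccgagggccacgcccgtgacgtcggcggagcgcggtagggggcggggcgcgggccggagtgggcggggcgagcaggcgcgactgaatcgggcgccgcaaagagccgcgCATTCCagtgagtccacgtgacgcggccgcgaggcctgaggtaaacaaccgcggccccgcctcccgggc

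RefSeq windows of 300 bases, 250 before and 50 after the start, were matched for 54 of the 58 members. The motif lay in 8 of these 54 windows (14.8%), against 3836 of 27305 windows of the whole table (14.0%). Among the members that fell with the drug in sensitive cells it lay in 5 of 19 (26.3%), a share that was not tested. FRMD4A and OTUD1, printed above, are among these 5. NMT2 also fell and has no motif in its window. OPTN, MLLT10 and CELF2 hold the motif and are not among the members that fell. A match describes letters, not binding, and the 3 windows without capitals say nothing on TEAD.

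Library totals ran from 31878934 to 46962645 counts. The member at the lower end of expression was C10orf67 and the one at the upper end PLXDC2, with mean CPM of 1.08 and 571. Just inside the 1 CPM limit stood C10orf67 at 1.08 and ECHDC3 at 2.28, and just outside it CDNF at 0.863 and CCDC3 at 0.840. All 10 mesothelial markers listed passed the filter on low counts, and their summed level was 10745 to 12951 CPM in sensitive DMSO libraries against 4843 to 5819 in resistant DMSO. The sum leans on the keratins KRT18, KRT8 and KRT19, with means of 3939, 2604 and 2402 CPM in sensitive DMSO. The markers did not move alike. From sensitive to resistant DMSO the mean of PDPN was 161 and 151 CPM, and KRT5 alone was higher, at 80.7 and 106. Sums for blood markers stayed between 0.665 and 6.60 CPM. The tissue label names lung epithelium, while the cell type label names mesothelioma. The share of counts from mitochondrial genes averaged 0.556% in DMSO and 1.01% in GNE-7883 for the sensitive line, against 0.604% and 0.656% for the resistant line. Replicate 2 of sensitive DMSO stood apart from its group, with a summed member level of 2929 CPM against 3242 and 3268 in replicates 1 and 3. The part of these measures in the results was not tested.

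The members were, as a group, higher in the resistant line with and without the drug. For each library, the median over members of log2(CPM + 0.5) minus the gene's mean over the 12 libraries was taken. It was -0.14, -0.28 and -0.19 in sensitive DMSO and -0.39, -0.32 and -0.33 in sensitive GNE-7883. In resistant libraries it was 0.33, 0.30 and 0.34 in DMSO and 0.24, 0.26 and 0.25 in GNE-7883. All 6 resistant libraries lay above all 6 sensitive ones, and by this measure the sensitive libraries in GNE-7883 lay lowest. The same measure over the 350 protein-coding genes beyond the gene-free gap around the centromere averaged 0.04, -0.01, -0.01 and -0.02 in the groups in the same order. The summed CPM of the members had the reverse order within the sensitive line. It was 2929 to 3268 in sensitive DMSO and 3488 to 3503 in sensitive GNE-7883.

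**Figure D1:**
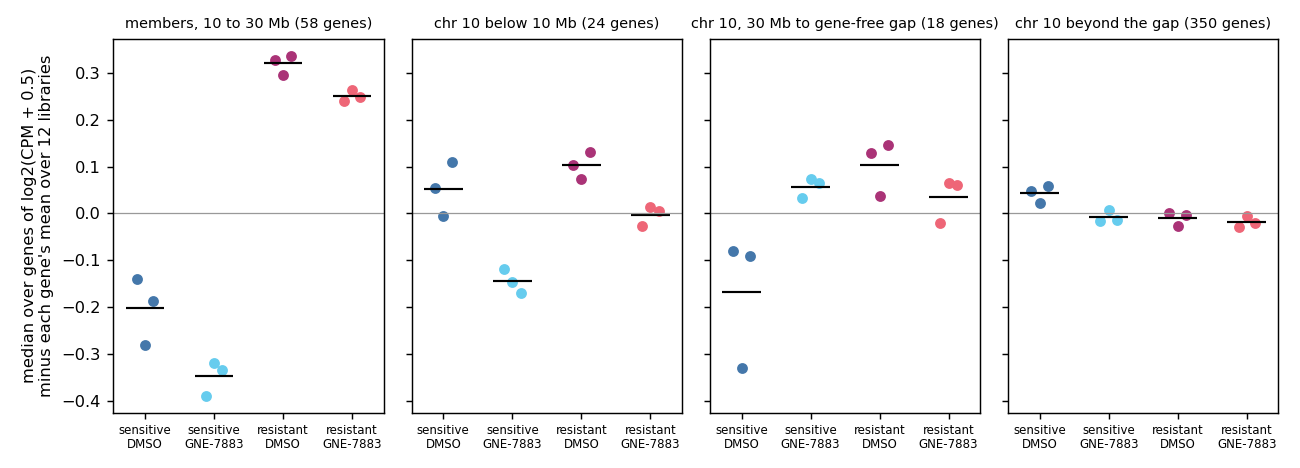
Median over genes of log2(CPM + 0.5) minus each gene's mean over the 12 libraries (vertical axis) for the 58 members and for 3 other sets of protein-coding genes of chromosome 10, by group. Points are libraries and bars are group means; the members' medians run from -0.39 to -0.14 in sensitive and from 0.24 to 0.34 in resistant libraries.

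In DMSO the members' median log2 fold change, resistant against sensitive, was 0.50 (a fold of 1.42), with the middle 50% of members between 0.22 and 0.73. It was 0.00 over all 18035 genes tested and 0.01 over the 11435 protein-coding genes of other chromosomes with at least 1 CPM. By edgeR's quasi-likelihood test with Benjamini-Hochberg adjustment over all genes, at an adjusted p under 0.05, 43 members were called higher and 6 lower, while 24.2% of all genes tested were called higher and 24.4% lower. Of the 11435 protein-coding genes of other chromosomes, 29.8% were called higher and 28.1% lower. In 43 members all 3 resistant libraries lay above all 3 sensitive ones (27.4% of all genes), and in 5 all lay below (26.5%). Without replicate 2 of sensitive DMSO, 44 members were called higher and 8 lower, with a median of 0.51. Since the rule used this difference, nothing is read from these counts.

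In GNE-7883 the median was 0.66 (a fold of 1.58), with the middle 50% between 0.17 and 1.17. Here 44 members were called higher and 9 lower, against 30.7% and 31.1% of all genes. Of the 11435 protein-coding genes of other chromosomes with at least 1 CPM, 37.5% were called higher and 33.5% lower. Libraries did not overlap in 47 members that were higher (34.3% of all genes) and 10 that were lower (35.2%). The comparisons in DMSO and in GNE-7883 use different libraries of the same pair of lines. In both, 38 members were called higher and 5 lower, the latter being CAMK1D, HACD1, PLXDC2, MYO3A and BAMBI. The share of all genes called alike in both is not given, so nothing is read from these joint counts. SVIL was called higher in DMSO and lower in GNE-7883, OTUD1 the reverse, and CELF2 in neither.

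Of the 58 members, 43 were called higher in DMSO and 44 in GNE-7883, beside 24.2% and 30.7% of all genes. With so many called, runs of neighbours arise in any order of the genes. The runs are therefore listed, and nothing is read from their length. From OPTN to MINDY3, 16 members in a row were called higher in DMSO, and the same 16 in GNE-7883. From PDSS1 to RAB18, 7 in a row were called higher in both. A run of 8 from NEBL to MSRB2 was seen in DMSO and one of 8 from USP6NL to CDC123 in GNE-7883. Genes on the plus strand (31 members) and on the minus strand (27) had medians of 0.40 and 0.61 in DMSO and of 0.66 and 0.70 in GNE-7883. The 29 members of lower mean CPM had medians of 0.53 in DMSO and 0.73 in GNE-7883, and the 29 of higher mean CPM 0.40 and 0.51.

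**Figure D2:**
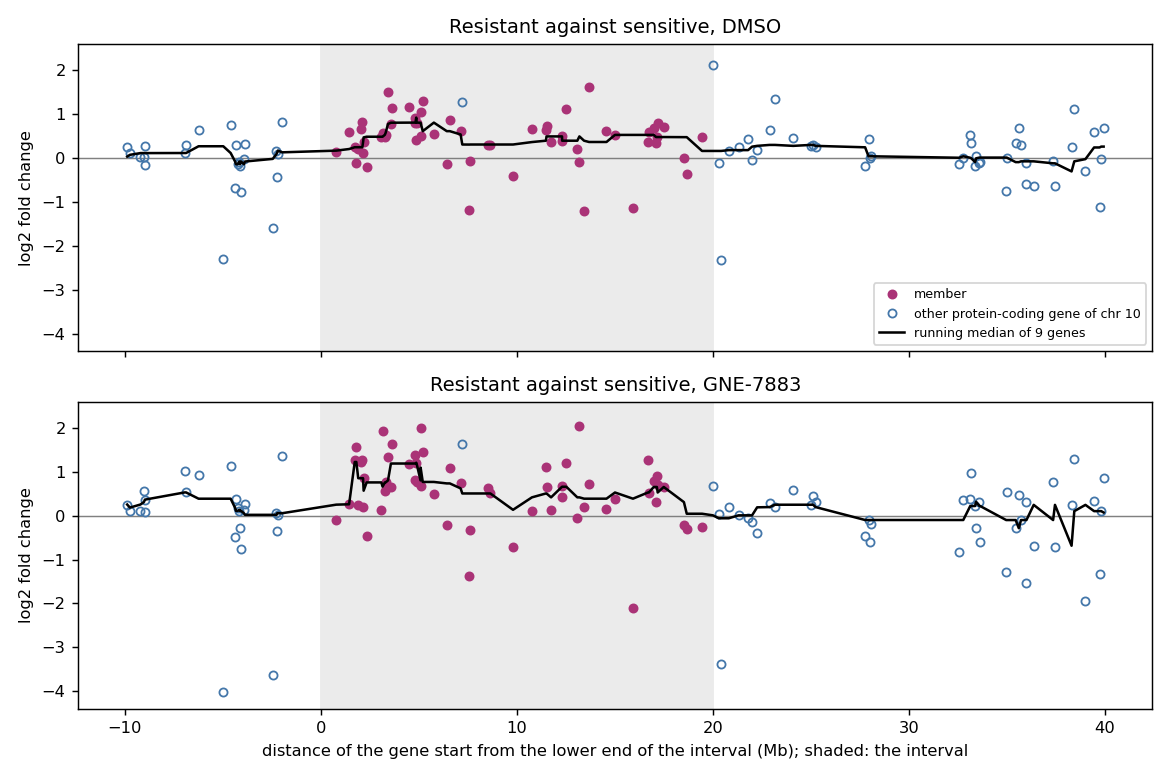
Log2 fold change, resistant against sensitive, of protein-coding genes with at least 1 CPM (vertical axis) by distance of the gene start from the lower end of the interval in Mb (horizontal axis), in DMSO (top) and GNE-7883 (bottom). Filled points are members, open points other genes and the line is the running median of 9 genes; the members' medians are 0.50 and 0.66.

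Medians were also taken in windows of 5 Mb. In DMSO they were 0.12 and -0.08 in the 2 windows below 10 Mb, then 0.55, 0.51, 0.55 and 0.48 across the interval with VIM included. Past 30 Mb they were 0.26 and 0.25 up to the gap and -0.09 in the window from 40 to 45 Mb. In GNE-7883 the order was 0.37 and 0.06 below the interval, then 0.83, 0.62, 0.54 and 0.46 within it, and 0.04, -0.10 and 0.22 after it. The windows within the interval lay above the others just listed in both conditions. The closest values were 0.46 (25 to 30 Mb) and 0.37 (0 to 5 Mb) in GNE-7883, and 0.48 (25 to 30 Mb) and 0.26 (30 to 35 Mb) in DMSO. Raised windows were also found farther along the chromosome. In GNE-7883 the median was 0.42 from 90 to 95 Mb, where 12 of 22 genes were called higher, 0.38 from 55 to 60 Mb and 0.35 from 65 to 70 Mb. In DMSO the highest beyond 45 Mb were 0.29 from 50 to 55 Mb and 0.26 from 85 to 90 Mb.

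A fit of 3 levels along chromosome 10 to the 451 protein-coding genes, VIM included, by least absolute deviation placed the raised stretch from DHTKD1 to CCNY in DMSO, gene starts at 12068972 and 35247025. It held 68 genes with a median of 0.48, against 0.11 before and -0.05 after. In GNE-7883 the stretch ran from ECHDC3 at 11742366 to RAB18 at 27504174 and held 54 genes with a median of 0.69, against 0.13 before and -0.03 after. The DMSO ends depended on single libraries. The far end moved to 27.5 Mb without replicate 2 of sensitive DMSO or replicate 3 of resistant DMSO, and to 37.9 Mb without replicate 3 of sensitive DMSO, while the near end moved to 13.1 Mb without replicate 1 of sensitive DMSO and to 8.05 Mb without replicate 1 of resistant DMSO. With squared deviations the fit left the interval altogether and marked lowered stretches of 5 genes each. These lay at 79.5 to 80.4 Mb in DMSO (median -0.65) and at 102.7 to 103.1 Mb in GNE-7883 (median -1.39). The ends of the raised stretch are thus given as where the 1 fit by least absolute deviation placed them.

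The genes next to the interval varied. Before 10 Mb, GATA3, a zinc-finger transcription factor, differed by 0.83 in DMSO and 1.37 in GNE-7883, whereas its neighbour TAF3, a subunit of the general factor TFIID, differed by 0.09 and 0.02. ATP5F1C, a subunit of mitochondrial ATP synthase, differed by -0.43 and -0.35. After 30 Mb, JCAD, a cell-junction protein, differed by 2.12 and 0.67, MTPAP, the mitochondrial poly(A) polymerase, by -0.11 and 0.04, and MAP3K8, a MAPK pathway kinase, by -2.31 and -3.38. As sets, the 24 genes below 10 Mb had medians of 0.06 in DMSO and 0.13 in GNE-7883, and the 18 from 30 Mb to the gap 0.25 and 0.03. In DMSO 9 of those 18 were called higher and 1 lower, and in GNE-7883 7 and 4. Of the 24 below 10 Mb, 8 were called higher and 8 lower in DMSO, and 11 and 5 in GNE-7883. These counts stand beside 24.2% higher and 24.4% lower over all genes in DMSO, and 30.7% and 31.1% in GNE-7883.

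Of the genes inside the interval that the rule leaves out, VIM (vimentin, an intermediate filament protein) had 800, 950 and 792 CPM in sensitive DMSO and 2031, 2054 and 2106 in resistant DMSO, a log2 fold change of 1.28. In GNE-7883 it had 569, 656 and 595 CPM in sensitive and 1884, 1868 and 1875 in resistant libraries, a log2 fold change of 1.63. Its groups did not overlap between the lines. ITGA8, an integrin subunit, had 1 count in all and was listed at 0 in 11 libraries.

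In the account by role, a pair of differences is the log2 fold change of resistant against sensitive cells, in DMSO first and in GNE-7883 second. The counts by list come from comparisons counted as used in choosing the interval, in which 24.2% of all genes were called higher and 24.4% lower in DMSO, and 30.7% and 31.1% in GNE-7883. Nothing is read from them. Among the 12 members of the chromatin, replication and DNA list, 11 were called higher in DMSO with none lower, and 11 higher with 1 lower (WAC) in GNE-7883. The median was 0.49 in DMSO and 0.75 in GNE-7883. The list is loosely drawn: it also holds COMMD3, a COMM-domain protein, and the RNA methyltransferases NSUN6 and TRDMT1. CDC123, an assembly factor of the translation initiation factor eIF2 that the list holds for its cell-cycle name, had the highest mean level of the list at 65.7 RPKM (reads scaled to gene length and library size).

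MCM10 (chr10:13161554-13211104), which helps to activate the replication helicase, had 24.9, 22.7 and 25.8 CPM in sensitive DMSO and 8.46, 8.49 and 8.89 in sensitive GNE-7883. In resistant cells it had 37.7, 34.5 and 37.2 CPM in DMSO and 30.5, 33.5 and 33.7 in GNE-7883. The drug groups did not overlap in sensitive cells, where MCM10 fell (log2 fold change -1.51 ± 0.075, edgeR adjusted p = 1.19e-10); in resistant cells the value was -0.16 ± 0.067 (adjusted p = 0.158). All resistant libraries lay above all sensitive ones.

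SUV39H2, a histone H3 lysine methyltransferase of heterochromatin, was at 24.4, 26 and 29.7 CPM in sensitive DMSO and 15.3, 14.1 and 13.8 in sensitive GNE-7883. Resistant libraries held 35.8, 35 and 35.6 CPM in DMSO and 33.9, 35 and 30.9 in GNE-7883. It fell with the drug in sensitive cells (log2 fold change -0.89 ± 0.079, edgeR adjusted p = 1.08e-07), with no overlap of the groups, and differed by -0.09 ± 0.075 in resistant cells (adjusted p = 0.525).

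BMI1, a subunit of Polycomb repressive complex 1, had 36.2, 34.8 and 37.6 CPM in sensitive DMSO and 49, 45 and 48.9 in resistant DMSO. In GNE-7883 the levels were 30.2, 31.1 and 29.5 CPM in sensitive and 47.3, 49.9 and 47.3 in resistant libraries. The lines did not overlap, and within the sensitive line the drug libraries were all lower (log2 fold change -0.26 ± 0.059, edgeR adjusted p = 0.00157). COMMD3 ends shortly before BMI1 begins on the same strand, and read-through transcripts of the pair could be counted for either.

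MASTL, the Greatwall kinase of mitotic entry, fell with the drug in sensitive cells (-0.51 ± 0.058, edgeR adjusted p = 1.66e-06) from 41.6, 38.1 and 39.4 CPM to 26.7, 28.8 and 28. In resistant cells it had 55.7, 53.5 and 57 CPM in DMSO and 51.1, 52.9 and 51.4 in GNE-7883. BEND7 (chr10:13438484-13528974), a BEN-domain protein, showed the widest difference of the list in DMSO (1.51), at 5.24, 5.07 and 4.71 CPM in sensitive and 14.3, 14.3 and 14.3 in resistant libraries. In GNE-7883 it stood at 4.90, 5.59 and 5.15 CPM in sensitive libraries, against 12.9, 13.2 and 13.3 in resistant ones, so that its lines were well apart in both conditions. WAC, an adaptor for histone H2B ubiquitination and the list's exception, differed by 0.00 in DMSO and -0.22 in GNE-7883; the latter call was lost without replicate 1 or 3 of resistant GNE-7883.

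Of the 8 members of the RNA and protein synthesis and folding list, 6 were called higher in DMSO and 6 in GNE-7883, with none lower. SEC61A2, an alpha subunit of the ER translocon, had 7.49, 6.66 and 7.64 CPM in sensitive DMSO and 13.2, 12.6 and 12.5 in resistant DMSO. HSPA14, a ribosome-associated Hsp70 protein, had 20.6, 20.7 and 17.9 CPM and 35.7, 32.7 and 35.3 in the same groups. Both lay higher in every resistant library. HSPA14 overlaps MSANTD7 on the same strand, so the split of reads between them is uncertain. CELF2, an RNA-binding splicing regulator, was called in neither condition (0.13 and -0.10). UPF2, a factor of nonsense-mediated decay, was called higher in GNE-7883 alone (0.21 in DMSO and 0.25 in GNE-7883), a call lost without replicate 2 or 3 of sensitive GNE-7883 or replicate 2 of resistant GNE-7883. PRPF18, a splicing factor, differed by 0.78 and 0.66, and RPP38, a subunit of RNase P, by 0.51 and 0.67. SEPHS1, of the selenophosphate synthetase family, differed by 0.53 and 0.76, and DNAJC1, an ER membrane co-chaperone, by 0.37 and 0.13.

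In the list of mitochondria, peroxisome and metabolism, 8 of 12 members were called higher and 1 lower in DMSO, and 9 higher and 2 lower in GNE-7883. NMT2 (chr10:15102584-15168693), an N-myristoyltransferase, had 36.6, 35.2 and 39.8 CPM in sensitive DMSO and 19.6, 18.3 and 19.6 in sensitive GNE-7883. Its resistant levels were 77.6, 74.2 and 79.9 CPM in DMSO and 74, 78.7 and 77.9 in GNE-7883. The sensitive groups did not overlap, and the fall there had a log2 fold change of -0.95 ± 0.064 (edgeR adjusted p = 3.51e-09), against -0.01 ± 0.059 in resistant cells (adjusted p = 0.968).

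YME1L1, a protease of the mitochondrial inner membrane, was the list's most abundant member at 38.1 RPKM. It had 251, 233 and 241 CPM in sensitive DMSO and 311, 294 and 313 in resistant DMSO. Its difference between the lines was modest (0.34 in DMSO and 0.31 in GNE-7883), with no overlap and no drug response that passed the test in either line. DHTKD1, a dehydrogenase of lysine breakdown, differed by 0.66 and 1.22, and ACBD5, a peroxisomal acyl-CoA binding protein, by 0.80 and 0.70. HACD1 (chr10:17589032-17617377), a dehydratase of very-long-chain fatty acid elongation, went the other way, with 87.8, 94.9 and 87.8 CPM in sensitive DMSO and 40.9, 38.9 and 40.2 in resistant DMSO. In GNE-7883 HACD1 was at 122, 118 and 130 CPM in sensitive and 44.8, 48.2 and 48.6 in resistant libraries, so that all resistant libraries lay below all sensitive ones.

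**Figure D3:**
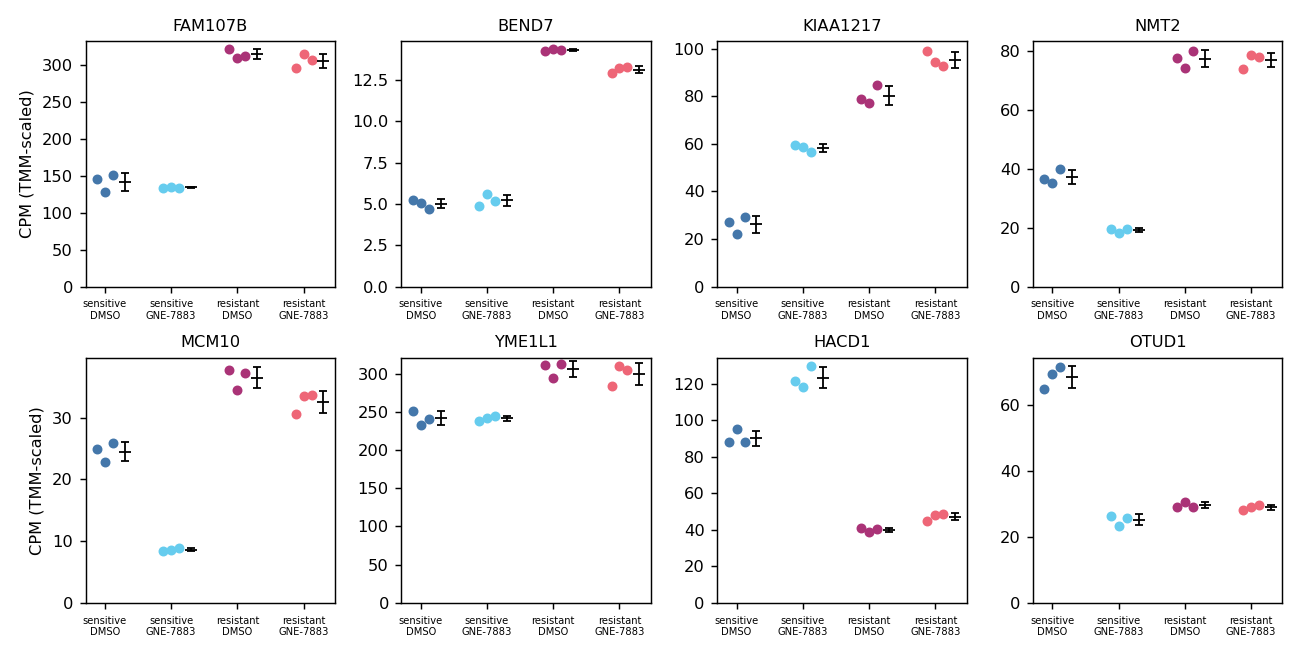
TMM-scaled CPM (vertical axes, from 0) of 8 members in each library by group, with the group mean and SD (n = 3) beside the points. FAM107B, BEND7, KIAA1217, NMT2, MCM10 and YME1L1 are higher in every resistant library, HACD1 is lower, and OTUD1 is high only in sensitive DMSO at 68.5 ± 3.32.

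Among the 8 trafficking and ubiquitin members, 6 were called higher and 1 lower in DMSO, and 7 higher and 1 lower in GNE-7883. PIP4K2A, a phosphoinositide kinase, had 33.7, 28.9 and 32.6 CPM in sensitive DMSO and 67, 68.6 and 70.8 in resistant DMSO. With the drug it had 28.7, 36.2 and 30.8 CPM in sensitive libraries, against 71, 75 and 72.2 in resistant ones, and the lines were apart in both. RAB18, a small GTPase of lipid droplets and the ER, differed by 0.70 and 0.65, and OPTN, an autophagy receptor, by 0.49 and 0.14. The OPTN call in GNE-7883 was lost without replicate 1 or 3 of sensitive GNE-7883. STAM, a component of the ESCRT-0 sorting complex and the list's most abundant member at 63.8 RPKM, differed by -0.06 and -0.33.

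OTUD1 (chr10:23439458-23442390), a deubiquitinase, departed from its neighbours. It had 64.8, 69.2 and 71.4 CPM in sensitive DMSO and 26.4, 23.2 and 25.8 in sensitive GNE-7883. In resistant cells it had 29, 30.5 and 29.1 CPM in DMSO and 28.2, 29 and 29.6 in GNE-7883. Only the sensitive DMSO libraries were high, and the other groups lay within 23.2 to 30.5 CPM. The fall with the drug in sensitive cells had a log2 fold change of -1.44 ± 0.064 (edgeR adjusted p = 3.33e-11), against -0.03 ± 0.064 in resistant cells (adjusted p = 0.836). The small difference between the lines in GNE-7883 (0.20) lost its call without replicate 2 of sensitive GNE-7883.

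In the list of cytoskeleton, adhesion and signalling, 10 of 15 members were called higher and 4 lower in DMSO, and 8 higher and 5 lower in GNE-7883. FAM107B (chr10:14518557-14774897), of unsettled function, was at 145, 127 and 151 CPM in sensitive DMSO and 322, 309 and 312 in resistant DMSO. In GNE-7883 it was at 134, 135 and 134 CPM in sensitive libraries, against 296, 314 and 306 in resistant ones. FAM171A1, a membrane protein linked to cell shape, was at 28.8, 27.9 and 27.6 CPM in sensitive DMSO and 69.7, 69.2 and 70.3 in resistant DMSO. Every resistant library exceeded every sensitive one for both genes, and neither gene passed the test for a drug response in either line with all libraries in the fit. Without replicate 2 of sensitive DMSO, FAM107B fell with the drug in sensitive cells (log2 fold change -0.15, edgeR adjusted p = 0.00823).

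KIAA1217 (chr10:23694746-24547848) gave 27.1, 22.1 and 29.1 CPM in sensitive DMSO and 59.6, 58.7 and 56.4 in sensitive GNE-7883. Resistant cells gave 78.9, 77 and 84.8 CPM in DMSO and 99.2, 94.2 and 92.6 in GNE-7883. It rose with the drug in sensitive cells (1.16 ± 0.083, edgeR adjusted p = 7.68e-09), and the difference between the lines was 1.62 in DMSO and 0.71 in GNE-7883. RSU1, a partner of the integrin-linked PINCH protein, differed by 0.88 and 1.09, FRMD4A, a scaffold of cell polarity, by 1.14 and 1.64, and ABI1, a subunit of the WAVE actin regulatory complex, by 0.60 and 0.53.

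MYO3A (chr10:25934071-26212536), an actin motor with a kinase domain, was lower in resistant cells and rose with the drug in both lines. It had 12.8, 11.3 and 12.5 CPM in sensitive DMSO and 36.7, 37.3 and 36.8 in sensitive GNE-7883. In resistant cells it had 5.98, 5.13 and 5.34 CPM in DMSO and 9.23, 8.34 and 8.24 in GNE-7883. Its drug response was 1.60 ± 0.075 in sensitive cells (edgeR adjusted p = 6.31e-11) and 0.65 ± 0.086 in resistant cells (adjusted p = 0.000149), with no overlap of the libraries in either line.

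PLXDC2, a transmembrane protein and the member with the highest CPM, was also lower in resistant cells. It had 600, 485 and 604 CPM in sensitive DMSO and 418, 404 and 445 in resistant DMSO. BAMBI, a decoy receptor of the TGF-beta family, differed by -0.37 and -0.29, and CAMK1D, a calcium/calmodulin-dependent kinase, by -0.21 and -0.47. The CAMK1D call in DMSO was lost without replicate 1 or 3 of sensitive DMSO and without replicate 1 or 2 of resistant DMSO. SVIL, the actin-binding supervillin, differed by 0.48 and -0.27; the call in GNE-7883 was lost without replicate 1 or 3 of sensitive GNE-7883, replicate 1 of resistant DMSO or any 1 replicate of resistant GNE-7883.

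**Figure D4:**
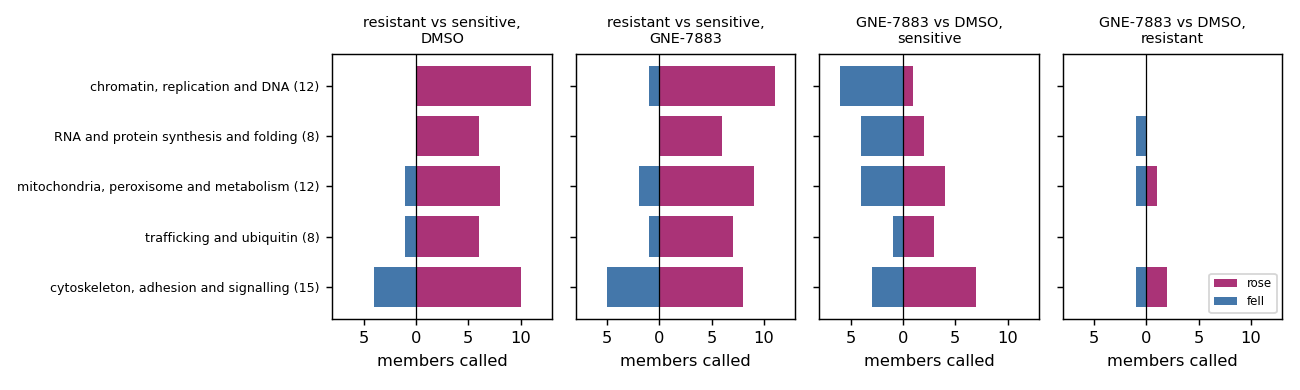
Number of members called higher (right of 0) and lower (left of 0) by edgeR's test in each of 5 role lists (list sizes in parentheses), for 4 comparisons. In DMSO the chromatin, replication and DNA list has 11 of 12 members called higher, and the cytoskeleton, adhesion and signalling list 10 of 15 with 4 lower.

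The drug responses were not used by the rule, although they share libraries with the comparisons between the lines. In sensitive cells GNE-7883 raised 17 members and lowered 20 by edgeR's test, with a median log2 fold change of -0.05. Over all genes tested 29.8% rose and 28.4% fell, with a median of 0.02, so the members' shares of 29.3% and 34.5% lay near those of all genes. The largest falls were in C10orf67 (-2.31 ± 0.26, adjusted p = 1.23e-06) and PROSER2 (-1.94 ± 0.066, adjusted p = 1.93e-12), both of unsettled function. C10orf67 had 1.33, 1.55 and 1.48 CPM in DMSO and 0.223, 0.393 and 0.265 in GNE-7883, levels at which few counts stand behind each value. PROSER2 had 72.9, 80.2 and 76.4 CPM in DMSO, against 19.5, 19.4 and 21 in GNE-7883, without overlap, but it overlaps the antisense gene PROSER2-AS1.

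By role, the chromatin, replication and DNA list had 1 member that rose and 6 that fell with the drug in sensitive cells, and the RNA and protein list 2 and 4. The metabolism list had 4 and 4, trafficking 3 and 1, and cytoskeleton 7 and 3. Over all genes tested 29.8% rose and 28.4% fell, and differences between the lists were not tested. ECHDC3, an enoyl-CoA hydratase domain protein, fell (-1.20 ± 0.16, edgeR adjusted p = 1.26e-05), as did PDSS1, an enzyme of coenzyme Q synthesis (-1.25 ± 0.13, adjusted p = 4.34e-07). NEBL, an actin-binding nebulin relative, rose (0.89 ± 0.082, adjusted p = 1.51e-07). Rises in ARHGAP21 and COMMD3 were lost when single libraries were left out, the first without replicate 1 of sensitive GNE-7883, the second without replicate 1 or 3 of sensitive DMSO, replicate 2 of sensitive GNE-7883 or replicate 3 of either resistant group.

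In resistant cells 3 members rose and 3 fell, with a median of -0.03, where 5.25% of all genes rose and 3.97% fell. The 3 that rose were MYO3A (0.65 ± 0.086), NEBL (0.34 ± 0.081, edgeR adjusted p = 0.0147) and HACD1 (0.24 ± 0.059, adjusted p = 0.0182). Those that fell were PDSS1 (-0.36 ± 0.11, adjusted p = 0.0499), HSPA14 (-0.31 ± 0.069, adjusted p = 0.00911) and PROSER2 (-0.26 ± 0.061, adjusted p = 0.0131). The MYO3A call held when any 1 library was left out. NEBL lost its call without replicate 1 or 2 of resistant DMSO or replicate 2 or 3 of resistant GNE-7883, HACD1 without replicate 2 or 3 of either resistant group, and PROSER2 without replicate 2 of resistant DMSO or replicate 3 of resistant GNE-7883. HSPA14 lost it without replicate 1 or 3 of resistant DMSO or replicate 1 of resistant GNE-7883. The PDSS1 call, just under the threshold, was lost in 15 of the settings tried, among them DESeq2 (adjusted p = 0.0602). Without replicate 2 of sensitive DMSO, which enters the shared estimate of spread, 8 members rose and 5 fell. The shares of all genes in that fit are not given, so these counts cannot be set against 5.25% and 3.97%. Each of the 6 members called with all libraries in the fit moved in the same direction as in sensitive cells. How often this holds among all genes called in resistant cells is not given, so nothing is read from it.

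**Figure D5:**
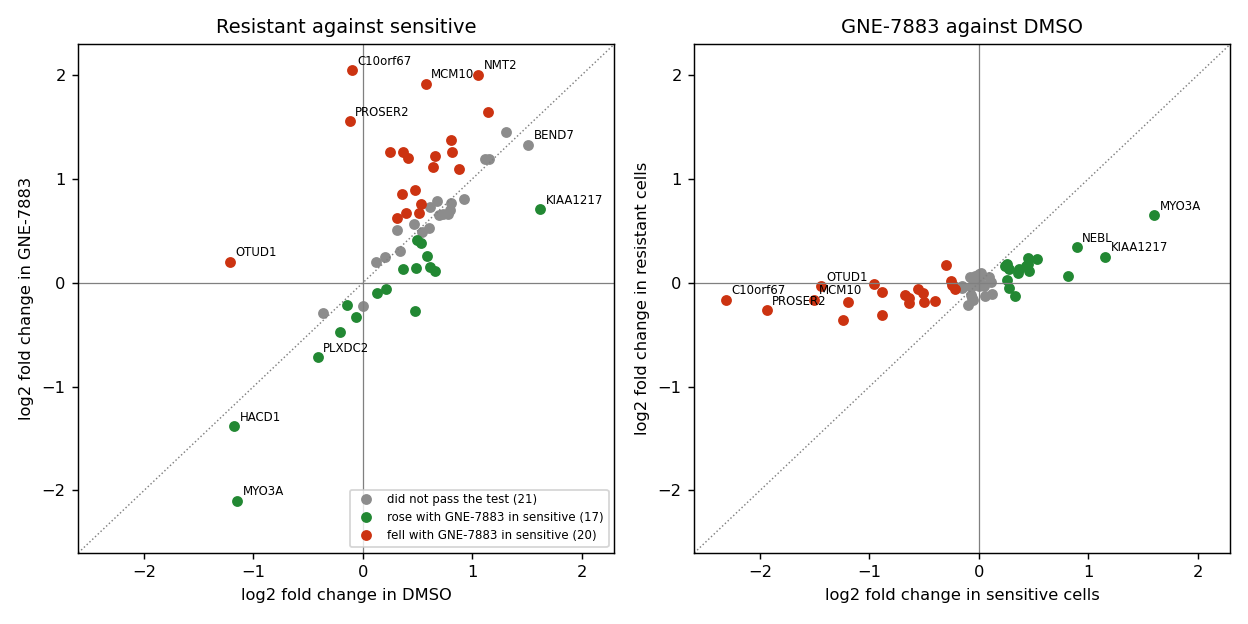
Log2 fold changes of the 58 members: left, resistant against sensitive in DMSO (horizontal) and GNE-7883 (vertical); right, GNE-7883 against DMSO in sensitive (horizontal) and resistant cells (vertical). Colours give the drug call in sensitive cells (17 rose, 20 fell, 21 did not pass), dotted lines mark equal values, and on the right all resistant values lie between -0.36 and 0.65.

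The drug response of the resistant line minus that of the sensitive line equals the difference between the lines in GNE-7883 minus that in DMSO. Both of those comparisons are counted as used in choosing the interval, so the values are given as a description. At an edgeR adjusted p under 0.05 it was positive for 16 members and negative for 9, with a median of 0.04, where 19.0% of all genes were positive and 16.7% negative. Among the 11435 protein-coding genes of other chromosomes with at least 1 CPM, 24.9% were positive and 20.6% negative. The widest positive values were in C10orf67 (2.14 ± 0.33), PROSER2 (1.67 ± 0.089), OTUD1 (1.41 ± 0.090) and MCM10 (1.34 ± 0.10). Negative ones were led by MYO3A (-0.95 ± 0.11) and KIAA1217 (-0.91 ± 0.11). STAM is counted among the 9 but dropped out in 15 of the settings tried. These were the replicate block (adjusted p = 0.0567), DESeq2, DESeq2 size factors, TMM without chromosome 10, no filter on low counts, a filter of mean CPM of at least 1, and leaving out any 1 library of sensitive GNE-7883 or of the resistant line. USP6NL, a RAB5 GTPase-activating protein, dropped out without any 1 resistant library, replicate 2 of sensitive DMSO, replicate 1 or 2 of sensitive GNE-7883, or the filter on low counts. PLXDC2 did so without any 1 resistant library or replicate 1 or 3 of sensitive GNE-7883, and ARHGAP21 without replicate 1 of sensitive GNE-7883 or any 1 resistant library other than replicate 2 of DMSO.

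The drug response in sensitive cells and the difference between the lines in GNE-7883 share libraries, and their values are given side by side. The 20 members that fell had median differences between the lines of 0.50 in DMSO and 1.21 in GNE-7883. For the 17 that rose the medians were 0.37 and -0.06. The 29 members whose drug effect in sensitive cells lay within 0.3 of 0 on the log2 scale had medians of 0.59 and 0.65. Of these 29, 24 and 25 were called higher, where 43 and 44 of all 58 members and 24.2% and 30.7% of all genes were. Since the rule used the differences between the lines, nothing is read from these counts.

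The other 31 protein-coding genes of the interval were under 1 CPM, 5 of them at 0 in every library and 12 of them tested; in DMSO 1 was called higher and 1 lower (median 0.30), and in GNE-7883 3 and 4 (median -0.32). Of 220 genes of other biotypes, 10 reached 1 CPM. Among those 10, none was called lower, and 3 were called higher in DMSO (median 0.24) and 8 in GNE-7883 (0.84), beside 24.2% and 30.7% of all genes. The 3 in DMSO were ENSG00000234961, which lies inside VIM, HNRNPRP1, inside MLLT10, and SVIL-AS1, which overlaps SVIL. Without strand, their reads cannot be told apart from those of these coding genes. In sensitive cells 7 of the 10 fell with the drug, where 28.4% of all genes fell. Among the 7 are ENSG00000234961, HNRNPRP1, PROSER2-AS1 and NUP35P1, the last lying inside KIAA1217, so the count may include reads of coding genes. HNRNPRP1, NUP35P1 and ORMDL1P1, also of the 7, are processed pseudogenes in GENCODE. SFTA1P, a long intergenic non-coding RNA in GENCODE, had 77, 95.5 and 76.6 CPM in sensitive DMSO and 21, 22.5 and 22.6 in sensitive GNE-7883. Its resistant levels were 84.6, 83.4 and 85.8 CPM without and 61.2, 67.5 and 62.4 with the drug. It was lowest in the sensitive drug libraries and fell in both lines (edgeR adjusted p = 2.37e-11 in sensitive and 0.00303 in resistant cells).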

How the data were processed

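RNA from 12 libraries was sequenced, 3 in each of 4 groups taken from the sample titles. The authors deposited a table of read counts per gene, not normalized, and the same table as RPKM. The submitters' processing notes name GSNAP, limma and the build GRCh38.p10; the sources used here name no counting tool or annotation, and the library kit marks no strand, so overlapping and antisense genes cannot be told apart. Library totals ran from 31878934 to 46962645 counts, so 3 counts, the limit a count of 0 allows, are 0.0639 to 0.0941 CPM (counting error only). Positions come from GENCODE 29, matched for 58039 identifiers; 263 had no match.

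Counts were tested with edgeR 4.0.16 in R 4.3.3 (TMM, filterByExpr, quasi-likelihood, group means fitted to all libraries, 8 residual degrees of freedom, 18035 genes, two-sided, Benjamini-Hochberg within each of 5 comparisons); errors of fold changes are standard errors, and CPM are TMM-scaled. The fit along the chromosome used 3 levels of at least 5 genes. The scripts were tested on simulated data. Alternatives included DESeq2 1.42.0 and limma 3.58.1 (voom). Named genes were, per comparison, the 8 members at each extreme, the 3 genes at each boundary or fitted end, VIM and ITGA8, and in each role list the 2 most abundant and the 2 most different members; other members named by role were added after their values were seen. The members and lists were chosen with earlier results of these data known. The values of 1 member are not reported here.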

Additional observations from a re-analysis of the deposited data

Results flagged for a closer look

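The response to GNE-7883 differed between the lines, by edgeR's test of the difference itself (resistant minus sensitive, adjusted p under 0.05), in 25 members, 9 with a negative and 16 with a positive value, where 16.7% and 19.0% of all genes had one. Among the 11435 protein-coding genes of other chromosomes with at least 1 CPM, 20.6% had a negative and 24.9% a positive value. The difference of responses is computed from the comparisons between the lines counted as used in choosing the interval, so it describes the members and supports nothing. On the log2 scale the difference was negative in MYO3A (-0.95), KIAA1217 (-0.91), SVIL (-0.75), NEBL (-0.55), ARHGAP21 (-0.46), OPTN (-0.35), USP6NL (-0.33), PLXDC2 (-0.30) and STAM (-0.26). It was positive in BMI1 (0.27), MASTL (0.42), SEC61A2 (0.44), MIR1915HG (0.47), CDC123 (0.49), FRMD4A (0.50), DHTKD1 (0.56), HSPA14 (0.57) and SUV39H2 (0.79). Larger positive values were seen in PDSS1 (0.89), NMT2 (0.95), ECHDC3 (1.01), MCM10 (1.34), OTUD1 (1.41), PROSER2 (1.67) and C10orf67 (2.14). The calls for STAM, USP6NL, PLXDC2 and ARHGAP21 were lost when single libraries were left out, and that for STAM also with the replicate block and by DESeq2.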

How the results depend on the processing

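The members' counts and medians between the lines kept their direction under every alternative run, with 40 to 44 called higher in DMSO and 42 to 47 in GNE-7883 when 1 library was left out, and medians of 0.49 to 0.53 and 0.64 to 0.71. The interval was selected on these differences, so their kept direction tests nothing. Shares of all genes called higher (24.2% and 30.7%) are given only with all libraries in the fit. No count from an alternative run is therefore read against a background. The members' GNE-7883 median was 0.70 with no filter on low counts. In resistant cells the drug raised 5 members by DESeq2, with no filter or with a filter of mean CPM of at least 1, and 6 when only the 2 groups compared were fitted; with 1 library left out it raised 1 to 8 and lowered 1 to 5, with medians of -0.055 to 0.0047. The negative differences of response numbered 5 to 11 with 1 library left out, and the median difference of response was -0.036 for members of at least 5 CPM. The beginning of the raised stretch in DMSO ran from 8.05 to 13.1 Mb and its end from 27.5 to 37.9 Mb with 1 library left out; in GNE-7883 both stayed at 11.7 and 27.5 Mb. With all biotypes the DMSO end was 36.5 Mb and the GNE-7883 beginning 8.05 Mb, and with mean CPM of at least 5 the latter was 11.8 Mb. Squared deviations marked lowered stretches of 5 genes instead, at 79.5 to 80.4 Mb in DMSO and 102.7 to 103.1 Mb in GNE-7883. The causes of these moves were not tested. Of 5742 single-gene values under alternatives, for the 58 genes followed, 138 lost and 71 gained a call and none reversed. These 58 are the named genes, not the 58 members: they include TAF3, GATA3 and VIM, and some members were not followed.

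Replicate numbers did not pair the libraries: correlations of same-numbered deviations ran from -0.119 to 0.18, 1 of 18 pairs passed 0.1, and 1 library correlated best with its own number. With the replicate number as a block, 43 members were higher and 6 lower in DMSO, 44 and 9 in GNE-7883, 17 rose and 21 fell with the drug in sensitive cells, 3 and 2 in resistant cells, and 17 and 8 differed in response. The shares of all genes under this block are not given, so nothing is read from these counts.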
